A study of Homo sapiens with 6 samples.

Results

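Small nucleolar RNA (snoRNA) host genes were taken by symbol, as every gene named *SNHG* followed by a number together with *GAS5*, *ZFAS1*, *DANCR* and *EPB41L4A-AS1*, which gave 33 genes among the 57992 gene identifiers counted. At least 10 reads summed over all libraries were required for a test, and 30 of the 33 host genes and 23304 genes in all passed. RNA-seq was done on HEK293T, a cell line from human embryonic kidney that expresses SV40 large T antigen. It asked which transcripts change when *RREB1*, a zinc finger transcription factor that binds RAS response elements, is depleted. The comparison was of 3 libraries labelled with a control short-hairpin RNA (sh-control) and 3 labelled with a short-hairpin RNA against *RREB1* (sh-*RREB1*). All cells were grown in DMEM with fetal bovine serum, and both groups carried a stably selected hairpin vector. A single hairpin against *RREB1* was sequenced, so an effect of depletion and an effect of that hairpin on other transcripts cannot be told apart. Neither the labels nor the methods say whether the libraries of a group came from separate cultures, and p-values then measure only the spread between these libraries.

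SnoRNAs guide the chemical modification of ribosomal RNA, box C/D snoRNAs for 2′-O-methylation and box H/ACA snoRNAs for pseudouridylation, and the related scaRNAs do the same for spliceosomal RNA in Cajal bodies. In human cells most of them lie inside introns and are released when the host transcript is spliced and the intron is trimmed. Many hosts make a spliced RNA that codes for no protein and is degraded by nonsense-mediated decay when ribosomes read it, and many start with a 5′ terminal oligopyrimidine (TOP) tract, a C followed by pyrimidines, as do the mRNAs of ribosomal proteins.

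Reads on genes numbered from 23362197 to 33044061 in the sh-control libraries and from 12257054 to 26145877 in the sh-*RREB1* libraries. In sh-*RREB1* replicate 3, 52.1% of the aligned reads mapped to several positions and entered no gene's count, compared to 3.66% to 7.63% in the other libraries. Aligned reads that fell on no gene made up 33.1% in sh-control replicate 1 and 31.8% in sh-*RREB1* replicate 1. In the remaining libraries they made up 19.2% to 24.9%. Levels are given as CPM, reads per 1000000 reads on genes after TMM scaling. *RREB1* stood at 27.2, 25.2 and 26.6 CPM in replicates 1, 2 and 3 of sh-control against 23.7, 24.6 and 23.2 CPM with sh-*RREB1*, a log2 fold change of -0.14 ± 0.13 (SE, n = 3 per group, adjusted p = 0.486 by edgeR). Every sh-*RREB1* library was below every sh-control library, as for 20.0% of all genes tested. Depletion of the targeted transcript was not detectable by this test, and the groups are called by their labels. The paper reports a far larger fall of *RREB1* mRNA, and less protein, with the hairpin it used for RNA-seq. Those measurements were made apart from these libraries. Of 10 genes that mark HEK293 cells, 7 were at 1 CPM or more in every library. The summed level of the 10 was 533 to 558 CPM in sh-control and 813 to 884 CPM in sh-*RREB1*. *VIM* was the largest part, at a mean of 340 CPM in sh-control and 572 CPM in sh-*RREB1*, and *CDH2* was at 99.6 and 94.5 CPM. At an adjusted p below 0.05, 5 of the 10 were higher (10.8% of all genes) and none was lower. With the GC correction described below, 4 were higher (10.4% of all genes) and 1, *NEFH*, was lower (11.7%). Their part in the results was not tested. Leukocyte, hepatocyte and fibroblast markers reached at most 1.29, 0.515 and 2.64 CPM in any library, and *CD3E* had no reads. The fibroblast marker *COL1A1* was nevertheless higher in sh-*RREB1*, at 0.348, 0.405 and 0.686 CPM with sh-control against 2.10, 2.64 and 0.952 CPM with sh-*RREB1* (log2 fold change 2.0, adjusted p = 0.0132, and 1.17 with adjusted p = 0.0269 after the GC correction described below, by edgeR).

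Hosts that rose hold guide RNAs of both classes, and 5 of these guide RNAs are shown here from hg38 with their boxes in capitals, box C (TGATGA) and box D (CTGA) in the box C/D snoRNAs and the ACA box near the 3′ end in the box H/ACA snoRNAs. *SNORD104* lies in *SNHG25* (chr17:64146083-64146152, plus strand), *SNORD60* in *SNHG19* (chr16:2155023-2155105, minus strand), *SNORA78* in *SNHG9* (chr16:1965184-1965310, plus strand), *SNORA26* in *DANCR* (chr4:52713249-52713370, plus strand) and *SNORA24* in *SNHG8* (chr4:118279190-118279320, plus strand).
SNORD104: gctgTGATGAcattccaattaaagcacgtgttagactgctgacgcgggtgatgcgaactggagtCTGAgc
SNORD60: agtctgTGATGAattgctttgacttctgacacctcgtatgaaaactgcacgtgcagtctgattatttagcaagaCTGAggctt
SNORA78: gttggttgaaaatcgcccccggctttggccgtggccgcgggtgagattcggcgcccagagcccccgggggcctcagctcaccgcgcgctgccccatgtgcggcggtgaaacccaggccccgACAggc
SNORA26: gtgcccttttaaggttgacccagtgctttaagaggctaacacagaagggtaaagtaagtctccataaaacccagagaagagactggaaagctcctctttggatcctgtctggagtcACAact
SNORA24: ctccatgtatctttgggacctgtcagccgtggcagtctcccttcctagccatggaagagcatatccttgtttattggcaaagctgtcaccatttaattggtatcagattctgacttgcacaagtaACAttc

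The start of the transcript was examined because many hosts are known to carry a TOP tract there. RefSeq promoters (GRCh38.p14) were found for 28 of the 33 host genes and for 35116 genes in all. A C at the annotated start followed by at least 4 pyrimidines was present at 7 of the 28 host genes (25%), compared to 4.07% of all promoters. With the C allowed up to 5 bases before or after the start, the count was 13 of 28 (46.4%), compared to 21.1% of all promoters. 5 of the 7 starts are shown from 10 bases before the annotated start to its base 20, with the tract in capitals, because they lie in hosts that rose (*SNHG4*, chr5:139274091-139274120, plus strand, and *SNHG19*, chr16:2155339-2155368, minus strand), fell (*SNHG5*, chr6:85678714-85678743, minus strand) or passed no test (*ZFAS1*, chr20:49278632-49278661, plus strand, and *SNHG12*, chr1:28581854-28581883, minus strand).
SNHG4: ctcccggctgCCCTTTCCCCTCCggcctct
SNHG19: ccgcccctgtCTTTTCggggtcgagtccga
SNHG5: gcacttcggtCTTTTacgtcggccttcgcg
ZFAS1: gccattcgttCTTTCgcgtctgcggtgccc
SNHG12: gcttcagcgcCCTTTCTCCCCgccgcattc

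Host genes with the tract and host genes without it moved in both directions. Over the 6 tested host genes with the tract at the start the median log2 fold change was -0.10. Of these, 2 were higher and 1 was lower at an adjusted p below 0.05 (10.8% and 8.81% of all genes tested). The 19 with a RefSeq start but no tract there showed a median of 0.26, with 4 higher and 1 lower. Among these 19, *DANCR*, *SNHG7*, *SNHG8*, *SNHG16*, *SNHG17* and *SNHG31* hold the tract within 5 bases of the start, and *DANCR* and *SNHG8* were called higher. The split therefore depends on the exact annotated starts. The sequence CAAACCAC, a part of the RAS response element, was searched on both strands from 250 bases before to 50 bases after the start, and 0 of the 28 host genes held it, compared to 1% of all promoters. At so low a share, 28 promoters are too few to show whether the host genes lack it.

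Levels per kilobase of exon allow genes of different length to be compared, and among the 30 host genes tested they ranged widely in sh-control, down to 0.00292 CPM per kilobase for *SNHG23*. *SNHG16*, the host of the *SNORD1* family, was highest at 84.6 ± 5.6 CPM per kilobase (SD, n = 3). *GAS5*, a transcript that accumulates when growth stops and which holds 11 snoRNA genes in RefSeq, was at 58.8 ± 3.57 CPM per kilobase, and *SNHG1* was at 43.2 ± 2.66. These 3 were each above the next host gene in every sh-control library. *SNHG29* followed at 30.0 ± 3.58 CPM per kilobase, *SNHG32* at 25.3 ± 3.53 and *SNHG3* at 23.6 ± 2.71, and the ranges of *SNHG29* and *SNHG32* overlapped, as did those of *SNHG32* and *SNHG3*. Exon lengths came from Gencode version 44 and include retained introns, so levels of genes with many such isoforms are understated. All host genes together took 0.169% to 0.194% of the reads on genes in sh-control and 0.204% to 0.215% in sh-*RREB1*, and *SNHG16*, *GAS5*, *SNHG29* and *SNHG1* held 61.9% to 65.5% of those reads in every library.

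**Figure D1:**
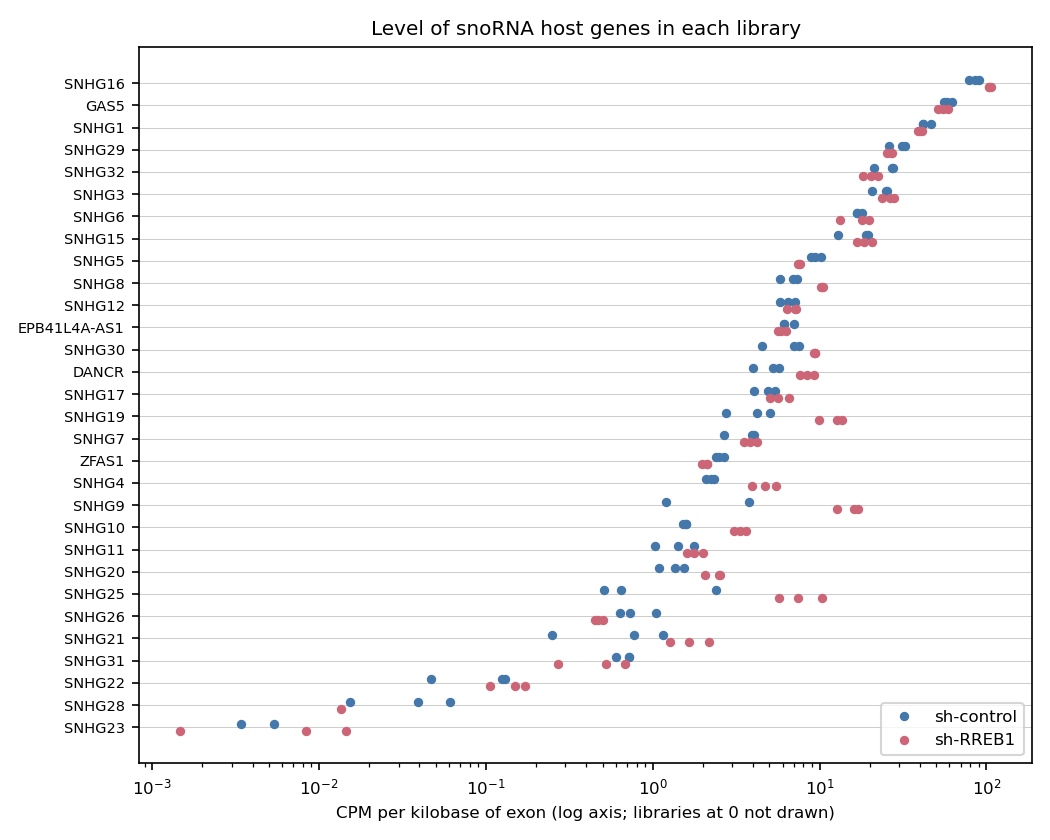
CPM per kilobase of exon (horizontal, log axis) of the 30 host genes tested, ordered by their mean in sh-control. Each point is 1 library, with 3 sh-control and 3 sh-RREB1 libraries per gene, and a library at 0 is not drawn. *SNHG16*, *GAS5* and *SNHG1* are at the top, and the groups are farthest apart at *SNHG9* and *SNHG25*, which lie in the lower part of the order.

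4 of the 30 host genes tested were past both an adjusted p of 0.01 and a 2-fold change, and all 4 were higher in sh-*RREB1*, compared to 2.71% of all genes tested that were called higher. No host gene was called lower by that rule, compared to 0.699% of all genes. At an adjusted p below 0.05 with no minimum change, 8 host genes were higher (10.8% of all genes) and 2 were lower (8.81% of all genes). Every sh-*RREB1* library was above every sh-control library for 11 host genes (21.1% of all genes) and below for 5 (20.0% of all genes). The median log2 fold change was 0.20 over the 30 host genes and 0.01 over all genes, with 19 host genes above 0 and 11 below. Fewer cells that make a transcript and less of it per cell cannot be told apart in these bulk libraries.

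The largest changes among the genes called were in the 3 host genes that span less than 1 kb. *SNHG25* (ENSG00000266402, chr17:64145937-64146476, plus strand, 540 bases), the host of *SNORD104*, stood at 0.174, 0.810 and 0.218 CPM in replicates 1, 2 and 3 of sh-control against 3.51, 1.95 and 2.54 CPM with sh-*RREB1*. The groups did not overlap, on 4 to 22 reads per sh-control library and 32 to 87 reads per sh-*RREB1* library. Its log2 fold change was 2.72 ± 0.50 (SE, n = 3 per group, adjusted p = 0.0089 by edgeR), and 3.69 without sh-control replicate 2 (adjusted p = 0.0236).

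*SNHG9* (ENSG00000255198, chr16:1964895-1965509, plus strand, 615 bases), which holds *SNORA78* within its annotated exon, stood at 0, 0.736 and 2.31 CPM with sh-control against 7.78, 9.82 and 10.5 CPM with sh-*RREB1*. It had no read in sh-control replicate 1, 20 in replicate 2 and 74 in replicate 3, so the controls differed widely among themselves while all of them were below the sh-*RREB1* libraries. The log2 fold change was 3.12 ± 0.72 with a 95% confidence interval from 1.49 to 4.76 (adjusted p = 0.0194 by edgeR). It was 4.53 without sh-control replicate 3, when one of the control libraries left had no read. The call at 0.05 was lost without sh-control replicate 2 (adjusted p = 0.0936), sh-*RREB1* replicate 2 (0.0547) or sh-*RREB1* replicate 3 (0.0699), and with DESeq2 (0.0829).

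*SNHG19* (ENSG00000260260, chr16:2154792-2155405, minus strand, 614 bases), the host of *SNORD60*, stood at 1.70, 3.09 and 2.59 CPM with sh-control against 6.13, 7.80 and 8.41 CPM with sh-*RREB1*. The groups did not overlap, and the log2 fold change was 1.58 ± 0.25 (adjusted p = 0.00563 by edgeR). It was called at an adjusted p below 0.05 under every alternative tried, including each library left out in turn.

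2 longer hosts also rose by more than 2-fold. *SNHG10* (ENSG00000247092, chr14:95521943-95534889, minus strand), the host of *SCARNA13*, was at 8.27, 8.61 and 8.60 CPM in sh-control, the tightest control values among the genes called. It was at 19.7, 18.2 and 16.7 CPM in sh-*RREB1*, and its log2 fold change was 1.10 ± 0.15 (adjusted p = 0.00376 by edgeR). *SNHG4* (ENSG00000281398, chr5:139274102-139284899, plus strand), the host of *SNORA74A* that lies within the *MATR3* locus, stood at 9.27, 10.4 and 10.0 CPM with sh-control against 24.5, 17.5 and 21.0 CPM with sh-*RREB1*. Its log2 fold change was 1.08 ± 0.17 (adjusted p = 0.00577 by edgeR), and reads that also matched *MATR3* on the same strand were not counted on either gene. *SNHG4*, *SNHG10*, *SNHG19* and *SNHG25* passed the adjusted p of 0.05 with each library left out, and all 4 passed the stricter rule only when the library left out was sh-control replicate 1.

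3 hosts rose by less than 2-fold. *DANCR* (ENSG00000226950, chr4:52712325-52723623, plus strand), a lncRNA known for holding progenitor cells undifferentiated and the host of *SNORA26*, stood at 40.9, 57.8 and 53.5 CPM with sh-control against 77.3, 94.8 and 85.1 CPM with sh-*RREB1*, a log2 fold change of 0.76 ± 0.15 (adjusted p = 0.0124 by edgeR). *SNHG8* (ENSG00000269893, chr4:118278703-118285316, plus strand), the host of *SNORA24*, stood at 38.3, 48.3 and 45.7 CPM with sh-control against 67.3, 69.2 and 68.8 CPM with sh-*RREB1*, a log2 fold change of 0.63 ± 0.12 (adjusted p = 0.0112 by edgeR). *SNHG20* (ENSG00000234912, chr17:77086716-77099902, plus strand), the host of *SCARNA16*, stood at 6.61, 9.35 and 8.29 CPM with sh-control against 15.2, 12.5 and 15.5 CPM with sh-*RREB1*, a log2 fold change of 0.83 ± 0.19 (adjusted p = 0.0177 by edgeR). None of the 3 overlapped between groups. Without sh-*RREB1* replicate 3, the library with most multimapping reads, the adjusted p was 0.055 for *DANCR*, 0.0564 for *SNHG8* and 0.0793 for *SNHG20*. *SNHG20* also missed 0.05 without sh-control replicate 2 (0.0566) or sh-*RREB1* replicate 1 (0.0544).

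2 hosts were lower. *SNHG5* (ENSG00000203875, chr6:85650491-85678932, minus strand), the host of *SNORD50B*, stood at 113, 129 and 118 CPM with sh-control against 93.2, 94.4 and 96.0 CPM with sh-*RREB1*, a log2 fold change of -0.34 ± 0.10 (adjusted p = 0.0468 by edgeR). *SNHG26* (ENSG00000228649, chr7:22854126-22872952, plus strand), the host of *SNORD93*, stood at 7.83, 4.75 and 5.45 CPM with sh-control against 3.79, 3.36 and 3.49 CPM with sh-*RREB1*, a log2 fold change of -0.76 ± 0.23 (adjusted p = 0.0471 by edgeR). Groups did not overlap in either gene. Both calls stood close to the threshold: each was lost when any library other than sh-control replicate 1 was left out, with adjusted p from 0.0645 to 0.158 for *SNHG5* and from 0.0597 to 0.139 for *SNHG26*.

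**Figure D2:**
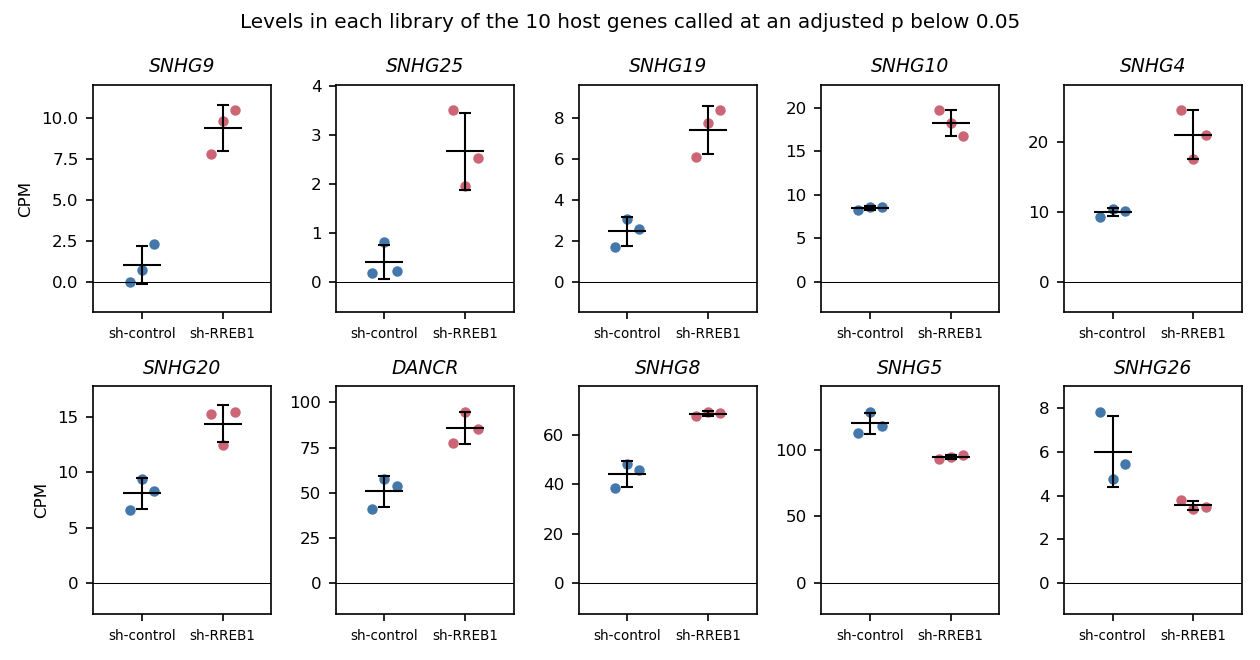
CPM in each library (vertical, linear axis of its own in each panel) of the 8 host genes that rose and the 2 that fell at an adjusted p below 0.05. Points are libraries, and the bar and whiskers are the mean ± SD of 3 libraries. In each panel the 2 groups do not overlap, and sh-control replicate 1 is the leftmost point.

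The hosts with the highest levels per kilobase passed neither rule. *SNHG16* (ENSG00000163597) came closest, at 455, 520 and 491 CPM with sh-control against 602, 619 and 600.1 CPM with sh-*RREB1*, with no overlap and a log2 fold change of 0.31 ± 0.10 (adjusted p = 0.052 by edgeR). *GAS5* (ENSG00000234741) stood at 274, 309 and 287 CPM with sh-control against 289, 253 and 271 CPM with sh-*RREB1*, with overlapping groups and a log2 fold change of -0.10 (95% confidence interval -0.33 to 0.14). *SNHG1* (ENSG00000255717) stood at 165, 184 and 166 CPM with sh-control against 155, 163 and 159 CPM with sh-*RREB1*, a log2 fold change of -0.11 (-0.33 to 0.11), and here the groups did not overlap. For these abundant hosts the intervals leave out any change of 2-fold in either direction.

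*SNHG29* (ENSG00000175061), the host of *SNORD49A*, stood at 232, 293 and 281 CPM with sh-control against 241, 228 and 243 CPM with sh-*RREB1*, a log2 fold change of -0.18 (-0.44 to 0.08). *SNHG3* (ENSG00000242125), the host of *SNORA73B*, stood at 83.8, 102 and 103 CPM with sh-control against 115, 96.1 and 108 CPM with sh-*RREB1*, a log2 fold change of 0.14 (-0.15 to 0.42). *SNHG32* (ENSG00000204387), the host of *SNORD48*, stood at 38.2, 48.8 and 49.7 CPM with sh-control against 36.5, 40.6 and 32.9 CPM with sh-*RREB1*, a log2 fold change of -0.31 (-0.65 to 0.03). The groups overlapped in all 3.

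*ZFAS1* (ENSG00000177410), an antisense transcript at the start of *ZNFX1* and the host of the *SNORD12* family, stood at 20.9, 22.2 and 20.01 CPM with sh-control against 17.7, 17.5 and 16.4 CPM with sh-*RREB1*. The groups did not overlap, but the log2 fold change of -0.29 ± 0.14 did not pass (adjusted p = 0.178 by edgeR). *EPB41L4A-AS1* (ENSG00000224032), the host of *SNORA13*, stood at 30.1, 26.2 and 26.2 CPM with sh-control against 27.0, 24.1 and 25.2 CPM with sh-*RREB1*, a log2 fold change of -0.11 (-0.42 to 0.20) with overlapping groups.

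The other 12 host genes tested passed neither rule, with log2 fold changes from -2.67 for *SNHG28* to 1.20 for *SNHG21*. *SNHG28*, with 19 reads over the sh-control libraries and 2 over the sh-*RREB1* libraries, *SNHG23*, with 19 reads in all, and *SNHG22*, with 45, were measured on few reads, and the 95% interval of *SNHG28* ran from -5.24 to -0.47. *SNHG18* had no read and *SNHG27* had 1 read in all. *SNHG14*, the host of the *SNORD115* and *SNORD116* clusters of the imprinted Prader-Willi region, had no read on its own strand. It overlaps *SNRPN* on that strand, and reads that match both are not counted on either. On the opposite strand, where *UBE3A* lies, 196 to 537 reads were counted on *SNHG14* per library.

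GC content moved with the change across genes. Over all genes tested, GC content of the exons and log2 fold change had a Spearman rho of 0.46, and over the 30 host genes rho was 0.24. These are descriptions across genes of the same libraries, and genes are not independent replicates. The host genes had a median GC content of 46.4%, close to the 47.1% of all genes tested, but *SNHG9* (66.3%), *SNHG25* (61.2%) and *SNHG7* (59.3%) stood at the upper end. All 8 hosts called higher had their lowest sh-control level in replicate 1, as had 24 of the 30 host genes and 43.2% of all genes tested. Without that library, 5 host genes passed the stricter rule (4.92% of all genes in the same fit, both directions) and 12 the adjusted p of 0.05 (22.1%).

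With each library's trend on GC content and exonic length removed in the edgeR model, the rho over the host genes was -0.04 and the median log2 fold change was 0.19, compared to -0.03 over all genes. By the stricter rule 3 hosts were higher (1.82% of all genes) and none was lower (1.20% of all genes). At an adjusted p below 0.05, 11 were higher (10.4% of all genes) and 4 were lower (11.7% of all genes). The 3 called by the stricter rule, *SNHG4*, *SNHG10* and *SNHG19*, were also called by it before the correction, and 9 hosts passed 0.05 with the same sign in both fits. The share of all genes that passed in both fits was not taken. *SNHG10* then had a log2 fold change of 1.21 ± 0.11 (adjusted p = 5.5e-05 by edgeR), *SNHG4* of 1.27 ± 0.13 (9.6e-05) and *SNHG19* of 1.32 ± 0.17 (0.00037).

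The corrected changes of *SNHG9* and *SNHG25*, which are GC-rich and also short, were smaller. GC content and exonic length were removed together, so their parts cannot be told apart. Where only the GC trend or GC correction is named, the same fit is meant. *SNHG9* went from 3.12 to 1.74 ± 0.42 (adjusted p = 0.012 by edgeR) and *SNHG25* from 2.72 to 1.84 ± 0.47 (0.0155). In the corrected fit *SNHG9* missed 0.05 without sh-control replicate 2 (0.0619) or sh-*RREB1* replicate 3 (0.053), and *SNHG25* without sh-control replicate 3 (0.0674) or sh-*RREB1* replicate 1 (0.0719). *SNHG7* (ENSG00000233016), at 13.1, 19.8 and 19.3 CPM with sh-control against 17.2, 20.5 and 18.7 CPM with sh-*RREB1*, went from 0.11 (adjusted p = 0.735) to -0.70 ± 0.12 (0.00184), which passed 0.05 in the corrected fit alone. *SNHG16* at 0.43 (0.0047), *SNHG30* at 0.81 (0.00896) and *SNHG21* at 1.41 (0.028) passed as higher with the correction, and *SNHG29* at -0.32 (0.0486) and *SNHG32* at -0.30 (0.0458) as lower. *SNHG5* no longer passed, at -0.15 (0.315). The signs of *GAS5*, *SNHG1*, *EPB41L4A-AS1* and *SNHG6* turned positive and that of *SNHG12* negative, and none of these passed. Because the trends were not alike in the 2 groups, a real change that follows GC content would be removed with them.

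**Figure D3:**
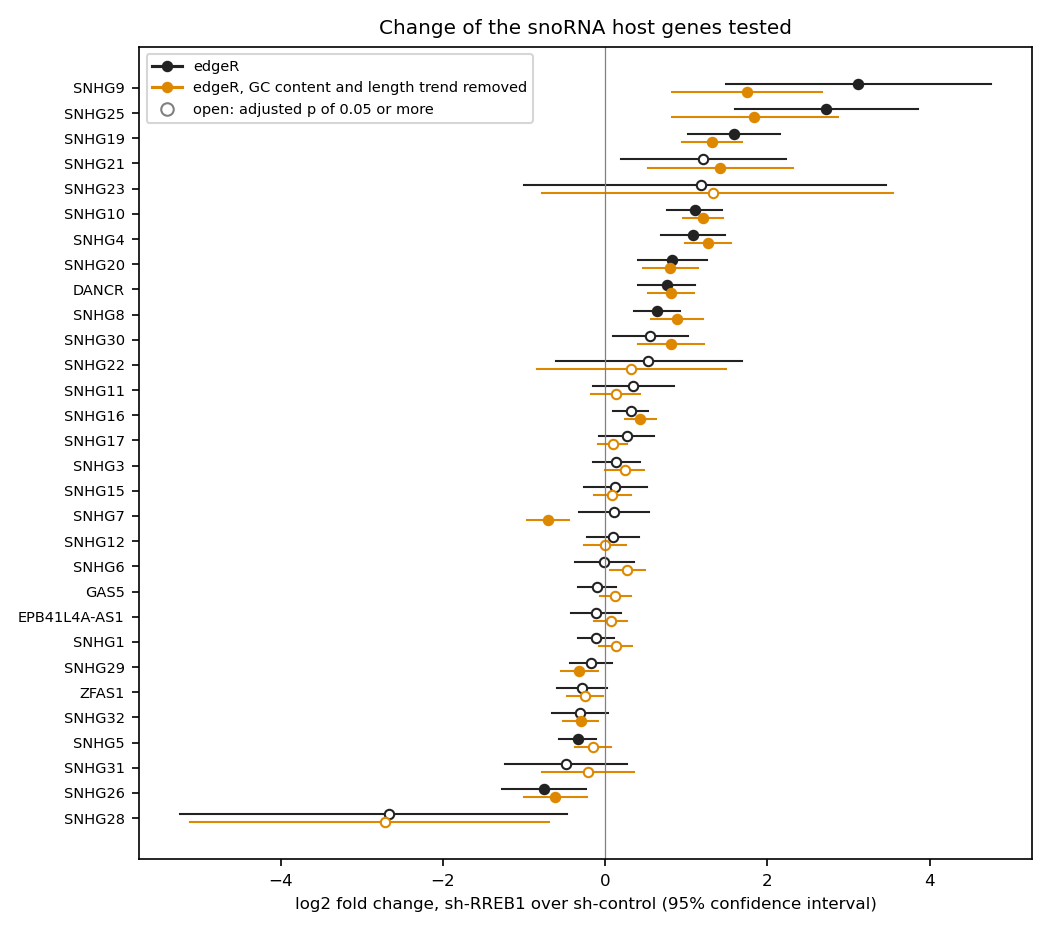
Log2 fold change of the 30 host genes tested, sh-RREB1 over sh-control, with 95% confidence intervals, by edgeR (black) and by edgeR with the trend on GC content and exonic length removed (orange). Filled points passed an adjusted p of 0.05. *SNHG10*, *SNHG4*, *SNHG19*, *SNHG20*, *DANCR* and *SNHG8* are filled in both fits, *SNHG9* and *SNHG25* move toward 0, and *SNHG7* moves from 0.11 to -0.70.

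**Figure D4:**
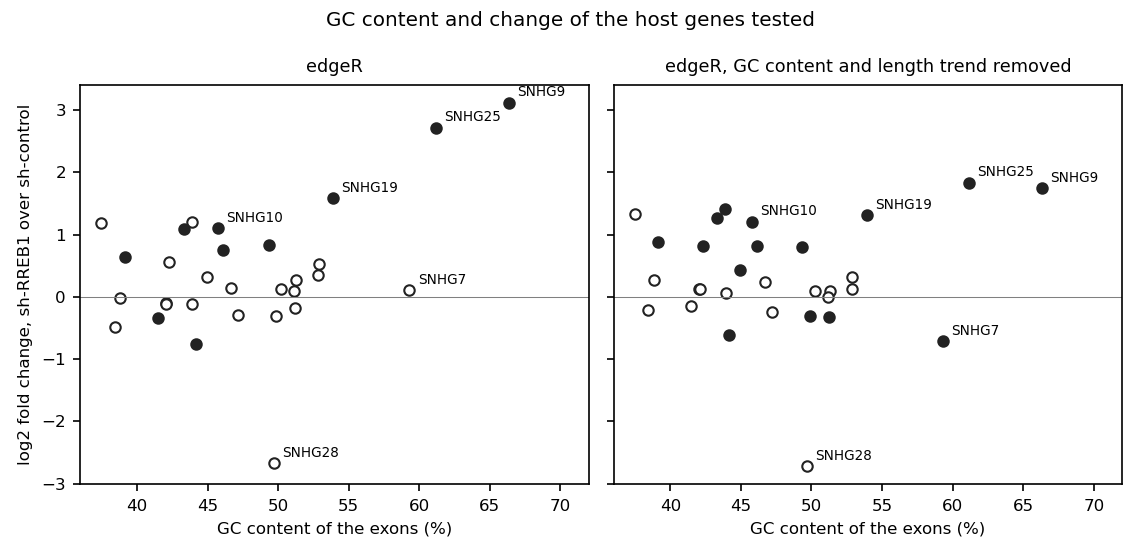
GC content of the exons (horizontal, %) against log2 fold change (vertical) for the 30 host genes tested, before (left) and after (right) removal of each library's trend on GC content and exonic length. Filled points passed an adjusted p of 0.05. On the left *SNHG9* and *SNHG25* have the highest GC content and the largest rises, and on the right *SNHG9* and *SNHG25* are at 1.74 and 1.84.

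The snoRNA and scaRNA genes inside the hosts were counted as genes of their own, and few of them had reads. Gencode version 44 places 191 of them within the span and on the strand of a host gene. None of these lies in *GAS5*, whose 11 snoRNA genes in RefSeq were therefore not examined. Of the 191, 84 lie in *SNHG14* and 46 in *SNHG23*, and 164 of the 191 had no read. Inside the other hosts, 37 of the 47 that overlap a host exon in version 44 and 4 of the 14 that lie in an intron had no read. Reads that match a snoRNA and a host exon in the annotation used for counting are counted on neither. Reads of a host precursor that cover a snoRNA in an intron are counted on the snoRNA, so the counts do not measure the released snoRNA alone. The annotation used for counting was an earlier Gencode version than the one that gave the exon overlap. *SCARNA13*, *SNORA71A* and *SNORA71C* overlap a host exon in version 44 but had 10611, 2467 and 1136 reads in all. The split by exon and intron therefore does not show how reads were assigned. *SNORD60*, *SNORA78*, *SNORA24* and *SCARNA16*, which overlap exons of hosts that rose, were among those with no read. 19 snoRNA or scaRNA genes in 14 hosts were tested, 9 of which overlap a host exon in version 44.

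1 of the 19 was called higher at an adjusted p below 0.05 (10.8% of all genes). *SNORD104*, whose sequence is given above, stood at 0.087, 0.147 and 0.156 CPM with sh-control against 0.645, 0.421 and 0.555 CPM with sh-*RREB1*, from 2 to 16 reads per library. Its log2 fold change was 1.97 (adjusted p = 0.0179 by edgeR), and its host *SNHG25* was at 2.72. No snoRNA gene was called lower at an adjusted p below 0.05 (8.81% of all genes), and the median log2 fold change of the 19 was -0.07.

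The other snoRNA and scaRNA genes tested inside hosts that rose passed no test. *SCARNA13* stood at 56.7, 90.2 and 71.2 CPM with sh-control against 54.9, 88.9 and 70.1 CPM with sh-*RREB1*, a log2 fold change of -0.03 where *SNHG10* was at 1.10. *SNORA26* stood at 3.0, 3.20 and 3.18 CPM with sh-control against 2.50, 3.29 and 2.70 CPM with sh-*RREB1*, a log2 fold change of -0.14 where *DANCR* was at 0.76. *SNORA74A* and *SNORA74D* were at log2 fold changes of 0.26 and 0.15 where *SNHG4* was at 1.08. The groups overlapped in all 4.

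The log2 ratio of host reads to snoRNA reads within a library does not depend on the scaling of the libraries. It was compared for all 19 pairs with a two-sided exact permutation test, which cannot go below p = 0.1 with 3 libraries per group. The ratio was higher in every sh-*RREB1* library than in every sh-control library for 5 pairs and lower for none. For *SNHG10* and *SCARNA13* it went from -3.07 ± 0.31 to -1.94 ± 0.42 (SD, n = 3, exact p = 0.1, adjusted over the 19 pairs 0.38). For *DANCR* and *SNORA26* it went from 4.0 ± 0.21 to 4.91 ± 0.06 (exact p = 0.1, adjusted 0.38). The other 3 pairs were *SNHG30* with *SNORD7*, *SNHG16* with *SNORD1B* and *SNHG17* with *SNORA71B*, with differences of 0.64, 0.57 and 0.41. None passed after adjustment, and no share over pairs outside these hosts was taken for comparison. *SNHG10* and *DANCR* were already called higher in these libraries while *SCARNA13* and *SNORA26* were not called. Their higher ratios therefore restate the host changes and are not separate evidence.

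**Figure D5:**
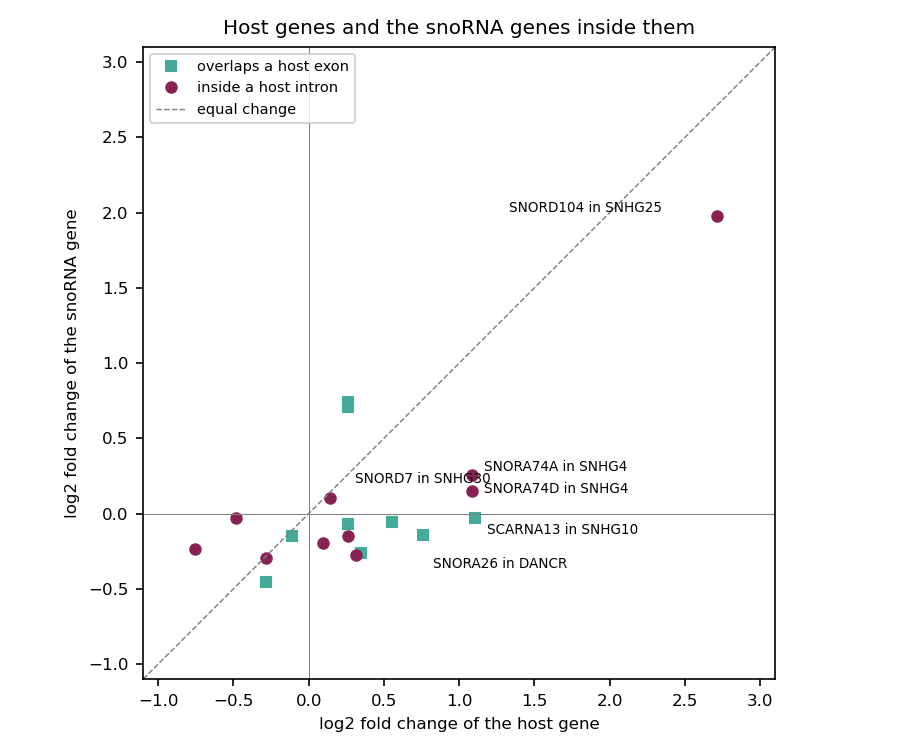
Log2 fold change, sh-RREB1 over sh-control, of each host gene (horizontal) against that of the snoRNA or scaRNA gene inside it (vertical), for the 19 pairs tested. Squares overlap a host exon and circles lie in a host intron, by the annotation used for positions and not the one used for counting. The dashed line marks equal change. *SNORD104* lies at 1.97 beside *SNHG25* at 2.72, while *SCARNA13*, *SNORA26*, *SNORA74A* and *SNORA74D* lie between -0.14 and 0.26 although their hosts are at 0.76 to 1.10.

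Many of these hosts share a start region with a gene on the other strand. 12 such divergent partners, with a start within 1000 bases, were annotated for 11 hosts, and 8 were tested. *TRAF7*, a ubiquitin ligase gene that starts 293 bases from *SNHG19*, stood at 5.74, 13.5 and 18.7 CPM with sh-control against 35.5, 46.5 and 32.4 CPM with sh-*RREB1*, a log2 fold change of 1.59 (adjusted p = 0.0188 by edgeR) beside the 1.58 of *SNHG19*. With the GC trend removed it was 0.64 (adjusted p = 0.00615), and sh-control replicate 1 was its lowest library. *RPS2*, a ribosomal protein gene that starts 54 bases from *SNHG9*, stood at 725, 1374 and 1582 CPM with sh-control against 1530, 2288 and 1858 CPM with sh-*RREB1*, a log2 fold change of 0.63 (adjusted p = 0.133) and -0.04 with the trend removed (0.838). The groups overlapped in *RPS2* and not in *SNHG9*.

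*ACAA2*, a gene of mitochondrial fatty acid oxidation that starts 12 bases from *SNHG22*, was lower, with a log2 fold change of -0.43 (adjusted p = 0.034 by edgeR), and it did not pass with the trend removed (-0.20, adjusted p = 0.211). *SLC3A2*, which encodes the heavy chain of an amino acid transporter and starts 51 bases from *SNHG1*, was at 0.25 (adjusted p = 0.436), and it was at 0.01 with the trend removed (0.98). *ZNFX1*, 248 bases from *ZFAS1*, was at -0.17 (0.528), and with the trend removed it passed as lower at -0.39 (0.0117). *ZBTB37* beside *GAS5* and *BARD1* beside *SNHG31* were at -0.36 and -0.32 and passed in neither fit.

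55 other genes of snoRNA biology were grouped by role, and all were tested. At an adjusted p below 0.05, 6 were higher (10.8% of all genes) and 9 lower (8.81%), and by the stricter rule 2 were higher (2.71%) and none lower (0.699%). The 4 box C/D core proteins had 1 member lower, *NOP58* at a log2 fold change of -0.43 (adjusted p = 0.0149 by edgeR), and the 4 box H/ACA core proteins had none called. Of 9 snoRNP assembly factors, *RPAP3* was lower at -0.47 (0.0462). With the GC trend removed *NOP58* was at -0.12 (0.462), *NOP56*, another box C/D core protein, was lower at -0.43 (0.00553) and *NHP2*, a box H/ACA core protein, was higher at 0.53 (0.00975). In that fit the assembly factors had *RUVBL2* (0.75) and *ZNHIT6* (0.27) higher and *RUVBL1* (-0.28) and *RPAP3* (-0.28) lower.

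Nonsense-mediated decay, which degrades many spliced host RNAs, had 1 of 15 genes higher (10.8% of all genes) and 3 lower (8.81%) at 0.05. *UPF1*, the central helicase of the pathway, stood at 16.7, 24.9 and 28.9 CPM with sh-control against 57.0, 61.0 and 47.7 CPM with sh-*RREB1*, a log2 fold change of 1.23 (adjusted p = 0.00671 by edgeR). *UPF2*, its partner, stood at 197, 170 and 167 CPM with sh-control against 106, 113 and 111 CPM with sh-*RREB1*, a log2 fold change of -0.69 (0.00537). *SMG8* at -0.56 and *UPF3B* at -0.39 were also lower. With the GC trend removed *UPF1* was at 0.44 (0.0129) and *UPF2* at -0.45 (0.00474), so these 2 kept opposite signs. *SMG8* stayed lower at -0.45 (0.00746), *UPF3B* did not pass at -0.10 (0.459), and *RBM8A* at 0.47 and *CASC3* at -0.25 passed in the corrected fit alone.

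Of 16 protein-coding snoRNA hosts other than ribosomal protein genes, 3 were higher (10.8% of all genes) and 4 lower (8.81%) at 0.05. The elongation factor gene *EEF2* rose from 345, 686 and 818 CPM with sh-control to 1420, 1868 and 1436 CPM with sh-*RREB1*, a log2 fold change of 1.35 (adjusted p = 0.013 by edgeR), and *PPAN* (1.09) and *PRRC2A* (1.0) were also higher. *TPT1* fell, with 1449, 1713 and 1666 CPM with sh-control against 907, 1109 and 1085 CPM with sh-*RREB1* and a log2 fold change of -0.64 (0.00945). *EIF4A2* (-0.50), *TCP1* (-0.39) and *HSPA9* (-0.34) were also lower. Among 7 regulators of TOP mRNAs, *LARP1*, which binds the TOP tract, was higher at 0.53 (0.022) and *RPTOR*, a subunit of the mTOR complex that controls it, at 1.26 (0.0051). With the GC trend removed, 10 of the 55 were higher (10.4% of all genes) and 8 lower (11.7%) at 0.05, and none passed the stricter rule. *EEF2*, *TPT1*, *LARP1* and *RPTOR* were at 0.57, -0.51, 0.34 and 0.62, all still past 0.05. The other 5 protein-coding hosts named no longer passed, with *PPAN* at 0.09 (adjusted p = 0.80), *PRRC2A* at 0.26 (0.0926), *EIF4A2* at -0.25 (0.0752), *TCP1* at -0.21 (0.111) and *HSPA9* at -0.17 (0.256). *TAF1D* at 0.38, *EIF4A1* at -0.45 and the TOP mRNA binding protein gene *CNBP* at 0.46 passed with the trend removed alone.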

How the data were processed

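RNA-seq of HEK293T cells (3 sh-control and 3 sh-*RREB1* libraries, grouped by the shRNA label) was analysed from total RNA libraries made with a strand-specific kit. The authors aligned reads with STAR to hg38 with Gencode version 25 and deposited one table of raw gene-level read counts for every library, without normalization. A merged table of the same samples held 6 count columns that were not used. Column 4, the counts on the gene's strand, was taken, and the lines for unassigned reads were left out of library sizes. Of 58037 identifiers, 45 pseudoautosomal duplicates were dropped, and of identifiers with the same symbol only the one with most reads was kept, leaving 55767.

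Genes with at least 10 reads in total entered the quasi-likelihood test of edgeR 4.0.16 under R 4.3.3, with TMM scaling, no term besides condition and p-values adjusted by Benjamini-Hochberg over all 23304 genes. SEs and 95% confidence intervals are those of the edgeR coefficient. Gencode version 44 on the same build supplied names, positions, exon lengths and GC contents, except *SNHG23*, which the merged table names. A second fit took out, as an offset, how each library depended on GC content and exonic length (natural splines, 5 degrees of freedom). Host to snoRNA ratios carried a pseudocount of 0.5 reads and were tested with SciPy 1.17.1.

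The host genes and related lists were chosen with earlier results of these data known. Levels in every library are given for hosts called by either rule, the 6 highest per kilobase and the 4 hosts not named *SNHG*. Alternatives were DESeq2 1.42.0, other scalings, filters, strands and identifiers, the replicate block, the GC correction and each library left out. Leaving out libraries within the GC correction was added after seeing the data. On simulated counts, edgeR recovered 98.5% of 200 changed genes and called 3 others among 22828. The simulated counts had a capped spread, only changes beyond 2-fold in well-expressed genes, no GC trend and no outlying library. They therefore do not give the recovery or the error rate in these data. All 6 pairs of libraries of the same group differed by more than sampling noise and were counted as separate.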

Additional observations from a re-analysis of the deposited data

Results flagged for a closer look

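Reads on the strand opposite *SNHG7*, which enter no comparison above, were higher in every library labelled sh-*RREB1* than in every sh-control library. The same held for 21.1% of all genes tested, on their own strand. This case was picked after opposite-strand reads had been counted for all 33 host genes. The exons of *SNHG7* are GC-rich (59.3%), and the GC correction was not applied to these reads. Replicates 1, 2 and 3 of sh-control held 115, 283 and 472 such reads (5.0, 10.4 and 14.7 CPM), and those of sh-*RREB1* held 608, 971 and 304 (24.5, 37.1 and 24.11 CPM). *DIPK1B* is annotated on that strand. *SNHG7* itself was at 13.1 to 19.8 CPM in sh-control and 17.2 to 20.5 CPM in sh-*RREB1* on its own strand, with overlapping groups. Sh-control replicate 1 was the lowest library on both strands, and its part in the difference was not tested.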

How the results depend on the processing

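The replicate numbers did not pair the libraries consistently. Same-numbered libraries had correlations of 0.50, 0.43 and -0.28, and sh-control replicate 3 with sh-*RREB1* replicate 2 had 0.56. Whether same-numbered libraries were handled together was not tested. When the block was added, 5 hosts passed the stricter rule and 13 an adjusted p of 0.05 (27.0% of all genes), and 1684 of all genes passed the stricter rule, compared to 794 without it and 1647 with DESeq2. With the block and the GC and length trend removed, 16 hosts and 29 of the related genes passed 0.05 (27.5% of all genes), and *RREB1* was at -0.37 (adjusted p = 0.0109). When single libraries were left out, from 0 to 5 hosts passed the stricter rule, from 4 to 12 hosts and from 4 to 17 related genes passed 0.05 (6.13% to 22.1% of all genes), and from 8 to 1117 of all genes passed the stricter rule. At 0.05 the fewest hosts, 4 (*SNHG4*, *SNHG10*, *SNHG19* and *SNHG25*), passed without sh-*RREB1* replicate 3 (6.69% of all genes), the fewest related genes and genes in all without sh-control replicate 2, and the most of each without sh-control replicate 1. When this was done with the trend removed, from 3 to 4 hosts passed the stricter rule, from 10 to 16 hosts and from 9 to 24 related genes passed 0.05 (13.6% to 25.2% of all genes), and *RREB1* was at -0.44 to -0.26, passing 0.05 without sh-*RREB1* replicate 1 (adjusted p = 0.0482). The median over the hosts stayed between 0.07 and 0.27 under every alternative. Among the hosts followed through every alternative, which do not include *SNHG6*, *SNHG7* or *SNHG12*, signs turned for *GAS5*, *SNHG1* and *EPB41L4A-AS1*, in fits with the trend removed, and the values there follow in the order of no library left out, the block, and sh-control replicates 1, 2 and 3 and sh-*RREB1* replicates 1, 2 and 3 left out. *GAS5* was at 0.13, 0.13, 0.046, 0.18, 0.152, 0.12, 0.138 and 0.13. *SNHG1* was at 0.13, 0.13, 0.0701, 0.18, 0.141, 0.19, 0.0696 and 0.144. *EPB41L4A-AS1* was at 0.0664, 0.0662, 0.11, 0.0315, 0.0565, 0.0377, 0.098 and 0.0735. *SNHG5* also missed 0.05 with a minimum of 1 read (0.0811) and *SNHG5* and *SNHG26* with both strands counted (0.083 and 0.0513). Apart from the GC and length trend, whose removal is the alternative itself, the cause of these shifts was not tested. With 19 reads in all, the 95% interval of *SNHG23* ran from -1.01 to 3.46 on the log2 scale, so a 2-fold change was not detectable at this depth.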
